A study of Homo sapiens with 12 samples.

Results

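The genes described are the EGF receptor family and its ligands in MDA-MB-231-ERβ cells, 9 genes chosen by symbol. They comprise 3 receptors (EGFR, ERBB2 and ERBB3), 5 ligands (AREG, EREG, HBEGF, TGFA and NRG1) and the feedback inhibitor ERRFI1. All 9 were among the 12451 gene entries of the count table, and all 9 were among the 11303 genes that passed the filter on low values. The filter required an RPKM (reads scaled by exon length and library depth) of at least 1 in at least 3 libraries.

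EGFR, ERBB2 and ERBB3 are receptor tyrosine kinases that pair up at the cell surface and signal through the RAS/ERK and PI3K/AKT pathways. AREG, EREG, HBEGF and TGFA are made as membrane-anchored precursors, are released by metalloproteases and bind EGFR, while NRG1 binds ERBB3 and ERBB4, and ERBB2 has no known ligand and serves as a partner. Triple negative breast cancer cells such as MDA-MB-231 often carry abundant EGFR, and several EGFR ligands are well-known early response genes of inflammatory and growth factor stimuli.

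MDA-MB-231-ERβ is a triple negative breast cancer line engineered to express full length ERβ from a transgene when doxycycline (dox) is present, and the study asked how estradiol (E2) acting on ERβ alters gene expression with and without TNFα. Cells were kept in charcoal-stripped serum with dox and given either ethanol, the vehicle, or E2 at 1 nM, over 5 days. In the TNFα and E2+TNFα groups, 20 ng/ml TNFα was present during the last 3 h. Each of the 4 groups had 3 libraries, from cells plated in triplicate. The study describes its cell culture experiments in general as done in biological replicates, and for these libraries it does not say whether the triplicate dishes came from separate experiments, so p-values measure the spread between these libraries. Dox is missing from the labels of the E2+TNFα group, and its presence there was taken from the study's methods. All groups therefore carried induced ERβ, and no group without it is part of these data.

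Reads assigned to genes came to between 7.65 M and 39.9 M per library (M, mega), lowest in E2 and highest in vehicle. Levels are given in CPM (counts scaled to a library of one mega, with TMM factors). ESR2, the transgene, was at 456.9 to 486.5 CPM in vehicle and 228 to 282 CPM in TNFα. It was at 293 to 322 CPM in E2 and 405 to 508 CPM in E2+TNFα. The TNFα and E2 libraries thus lay below those of vehicle and E2+TNFα. The part of these ESR2 differences in the results below was not tested. VIM, CD44 and KRT18, which this line expresses, summed to 2730 to 4689 CPM, ESR1 and PGR had no entry, and of 8 markers of leukocytes, endothelium and muscle only CD14 was listed, at no more than 1.89 CPM. Of the epithelial markers EPCAM and CDH1, which this mesenchymal-like line has little of, CDH1 was at 1.77 to 3.62 CPM without E2 and 32.2 to 53.4 CPM with E2, while EPCAM overlapped between libraries without E2 (6.92 to 10.6 CPM) and with it (6.54 to 15.7 CPM). The part of the CDH1 difference in the results below was not tested. In bulk RNA, fewer cells with a transcript and less of it per cell cannot be told apart. The vehicle libraries stood apart from the other 9: across all genes tested, the log2 fold change against vehicle correlated with the GC content of a gene's exons at Spearman 0.655 for E2, 0.706 for TNFα and 0.665 for E2+TNFα, as against -0.21 for E2+TNFα relative to TNFα and -0.01 for E2 relative to TNFα (correlations across genes, which are not independent). E2+TNFα relative to E2 correlated with GC content at Spearman -0.331 and with exon length at 0.459. The comparisons with vehicle correlated with exon length at -0.376 to -0.314. The treated groups are therefore not free of such trends. A technical batch holding the vehicle libraries and the vehicle condition cannot be told apart. Most comparisons of a member with vehicle are therefore given beside the median of genes of like GC content. For most members the comparisons among the treated groups are given first.

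The sequences below are the stretches upstream of the start sites of 5 members whose levels differed between groups, so that their base composition and motifs can be seen beside the values. EREG also differed, but its window held none of the motifs searched and is not shown. A second TGFA start is not shown either. They are from RefSeq (build GRCh38.p14), run 5′ to 3′ on the strand of the gene, start 250 bases before the start site and end where an exon begins. The motifs searched, on both strands, were GGGCGG (SP1), TGAGTCA (AP-1), TGACGTCA (CRE), the estrogen response element (GGTCA and TGACC with 3 bases of any kind between them) and the NFκB motif, and capitals mark the matches. AP-1 and CRE are palindromic or nearly so and were counted once per position.
TGFA (chr2:70554016-70554076, minus strand): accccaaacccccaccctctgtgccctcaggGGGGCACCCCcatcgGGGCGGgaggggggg
HBEGF (chr5:140346604-140346853, minus strand): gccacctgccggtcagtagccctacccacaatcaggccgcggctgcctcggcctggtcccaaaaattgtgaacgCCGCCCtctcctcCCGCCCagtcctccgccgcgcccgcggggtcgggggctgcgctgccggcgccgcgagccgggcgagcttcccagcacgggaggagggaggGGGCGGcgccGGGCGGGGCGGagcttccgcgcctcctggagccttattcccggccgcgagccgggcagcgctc
ERRFI1 (chr1:8026334-8026559, minus strand): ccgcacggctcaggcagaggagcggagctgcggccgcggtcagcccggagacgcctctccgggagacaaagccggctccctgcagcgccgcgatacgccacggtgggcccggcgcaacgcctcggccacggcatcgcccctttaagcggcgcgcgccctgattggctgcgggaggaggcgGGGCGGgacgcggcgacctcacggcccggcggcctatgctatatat
EGFR, first start (chr7:55018767-55019016, plus strand): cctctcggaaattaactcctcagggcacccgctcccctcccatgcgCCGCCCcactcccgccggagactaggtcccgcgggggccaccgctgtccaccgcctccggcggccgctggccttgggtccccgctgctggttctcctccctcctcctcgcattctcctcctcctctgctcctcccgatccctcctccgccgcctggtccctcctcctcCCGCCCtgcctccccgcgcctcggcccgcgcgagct
EGFR, inner start (chr7:55109589-55109722, plus strand): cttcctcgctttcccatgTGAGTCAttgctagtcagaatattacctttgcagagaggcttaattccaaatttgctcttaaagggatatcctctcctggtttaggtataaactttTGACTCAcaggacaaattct
AREG (chr4:74444886-74445097, plus strand): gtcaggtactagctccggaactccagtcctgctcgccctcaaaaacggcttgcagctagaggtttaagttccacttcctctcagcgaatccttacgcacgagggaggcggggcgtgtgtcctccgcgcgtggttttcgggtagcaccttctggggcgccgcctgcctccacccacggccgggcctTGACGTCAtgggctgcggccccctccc

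TGFA was the only one of the members with an entry whose window held the NFκB motif, at 219 to 210 bases before the start, a motif found in 5.21% of 35116 windows of the same length. HBEGF held 5 matches to GGGCGG, the last 2 of them overlapping, and ERRFI1 held 1. The windows of TGFA, EGFR and AREG held this motif as well, in part outside the stretches shown, and so did 42.6% of all windows. AP-1 matches were seen at the inner EGFR start only, in 2 places, and 4.20% of all windows had one. AREG had the CRE at 65 to 58 bases before its start, as did 1.65% of all windows. No member's window held the estrogen response element, which was in 0.0399% of windows. A match is a match of letters, and these counts do not show binding. ERBB3 and NRG1 were not matched to an entry.

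EGFR, the receptor of most of these ligands (chromosome 7, 55019032 to 55207338, plus strand, hg38), was lower in every library with E2. Its level was 228, 283 and 243 CPM in the 3 vehicle libraries and 241, 227 and 279 CPM in the TNFα libraries, against 58.1, 67.1 and 80.5 CPM in E2 and 99.6, 90.1 and 83.0 CPM in E2+TNFα. The 6 libraries without E2 lay above the 6 libraries with E2, with a gap between them, and TNFα and vehicle overlapped. EGFR fell by 1.86 on the log2 scale (SE 0.143) in E2 relative to TNFα, a 3.64-fold lower level (edgeR quasi-likelihood test, adjusted p 8.78e-08). In E2+TNFα relative to TNFα the difference was -1.46 (SE 0.14, edgeR adjusted p 1.03e-06), which was just under the size of 1.5 that a call required, and it was past that size without TNFα replicate 2 (-1.54), without E2 replicate 2 (-1.51) or without E2+TNFα replicate 1 (-1.55). Relative to vehicle, EGFR fell by 1.87 in E2 (SE 0.143, edgeR adjusted p 2.39e-08), where genes of like GC content had a median of 0.33. In E2+TNFα relative to vehicle it was at -1.47 (SE 0.14, edgeR adjusted p 2.88e-07), which passed the size of a call under library size alone (-1.70), under the filter of 10 counts per library (-1.52) and without vehicle replicate 1 or 3, E2 replicate 1 or 3 or E2+TNFα replicate 1 (-1.51 to -1.63). TNFα alone gave -0.01 relative to vehicle, with a 95% interval from -0.30 to 0.28. Genes of like GC content had medians relative to vehicle of 0.22 in E2+TNFα and 0.28 in TNFα. Between E2 and E2+TNFα the EGFR libraries did not overlap, but the difference of 0.41 did not pass the test (95% interval 0.11 to 0.70, edgeR adjusted p 0.132).

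ERBB2, the ligandless partner receptor (chromosome 17, 39688084 to 39728662, plus strand), was even in CPM across the 4 groups. Its libraries ran from 94.4 to 108 CPM in vehicle, 102 to 117 in TNFα, 85.7 to 107 in E2 and 86.9 to 124 in E2+TNFα. Every pair of groups overlapped. The log2 differences among the treated groups were -0.10 for E2+TNFα relative to TNFα (95% interval -0.40 to 0.20), -0.21 for E2 relative to TNFα (-0.51 to 0.09) and 0.11 for E2+TNFα relative to E2 (-0.19 to 0.41). ERBB2 has the highest exon GC content of the 9 genes (58.3%), and in the comparisons with vehicle, where it differed by at most 0.13, genes of like GC content had medians of 0.59 to 0.70. Its exons share 167 bases, 3.04% of their length, with MIEN1 on the opposite strand.

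ERBB3, the receptor of NRG1 with a weak kinase of its own (chromosome 12, 56080025 to 56103507, plus strand), was the scarcest of the 9 genes. It was at 8.76, 9.99 and 8.97 CPM in vehicle, 10.7, 11 and 11.9 in TNFα, 6.91, 5.10 and 10.7 in E2 and 9.03, 7.14 and 7.91 in E2+TNFα. The lowest count behind these values was 32 reads, in the shallowest E2 library, and ERBB3 reached an RPKM of 1 in 11 of 12 libraries. The E2 libraries were the most spread and overlapped every other group. The differences of -0.48 in E2+TNFα relative to TNFα (95% interval -0.95 to -0.01, edgeR adjusted p 0.0994) and -0.54 in E2 relative to TNFα (-1.03 to -0.06, edgeR adjusted p 0.0725) were small, and ERBB3 was called in no comparison.

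**Figure D1:**
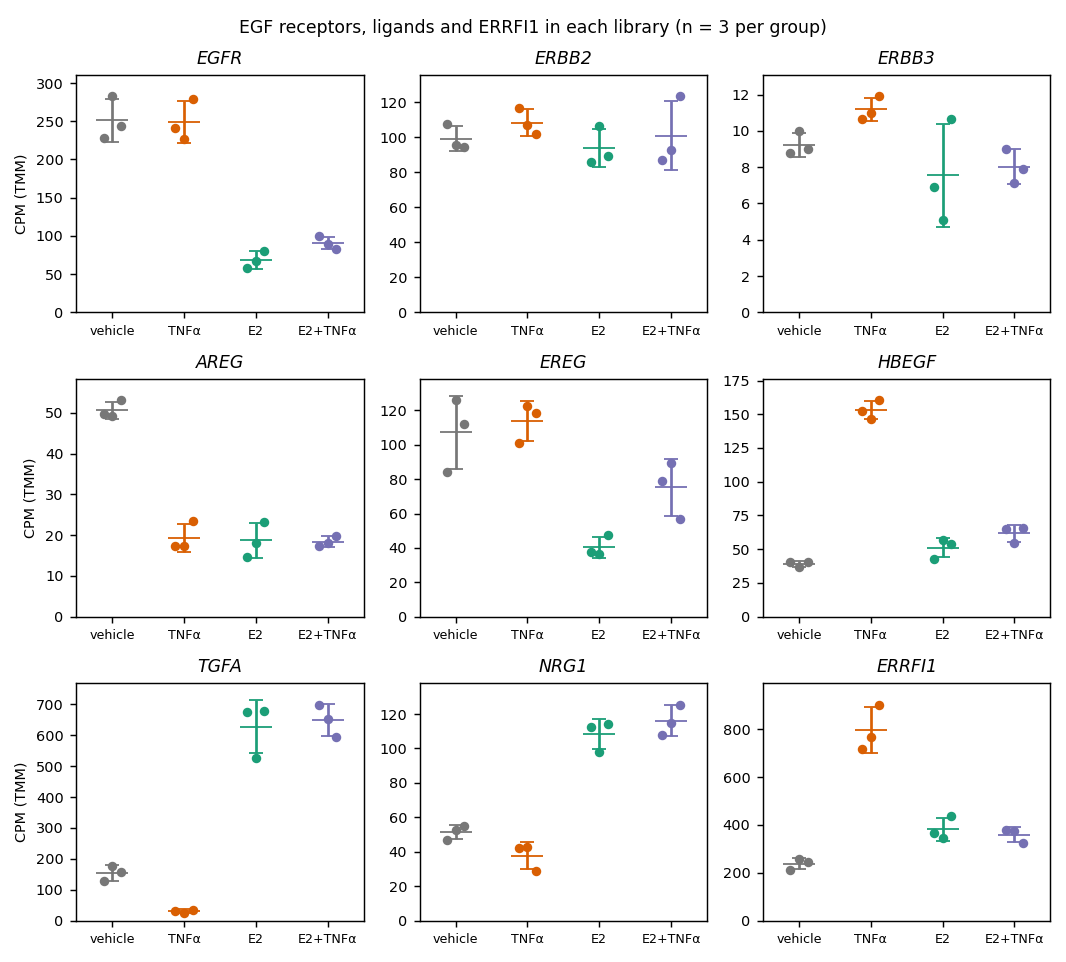
Level of each gene in each library, in CPM after TMM scaling (vertical axes start at 0 and differ between panels), by treatment group. Points are libraries, and the horizontal line and bar are the mean ± SD (n = 3). TGFA and NRG1 are high in both groups with E2, EGFR is low in both, HBEGF and ERRFI1 peak in TNFα alone, and AREG is high in vehicle alone.

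Of the ligands, TGFA (TGFα, chromosome 2, 70447280 to 70554015, minus strand) spanned the widest range, from 25.9 to 699 CPM. Vehicle libraries held 127, 178 and 156 CPM and TNFα libraries 32.7, 25.9 and 35.9 CPM. E2 libraries held 676, 527 and 680 CPM and E2+TNFα libraries 699, 651 and 595 CPM. The 2 groups with E2 overlapped each other and lay far above vehicle, and TNFα lay below vehicle with no overlap. In E2+TNFα relative to TNFα, TGFA rose by 4.37 on the log2 scale (SE 0.175, edgeR adjusted p 6.68e-11), a 20.6-fold difference, and in E2 relative to TNFα by 4.32 (SE 0.175, edgeR adjusted p 6.11e-11). Both of these comparisons share the TNFα libraries. Between E2+TNFα and E2 the difference was 0.05, with a 95% interval from -0.28 to 0.37.

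Relative to vehicle, TGFA rose by 2.03 in E2 (SE 0.157, edgeR adjusted p 2.73e-08) and by 2.08 in E2+TNFα (SE 0.157, edgeR adjusted p 3.21e-08), and it fell by 2.29 in TNFα (SE 0.161, edgeR adjusted p 2.07e-08). Genes of like GC content (47.5%) had medians of -0.08, -0.12 and -0.13 in these comparisons. TGFA was past the thresholds, in the same direction, under every alternative run for the 5 comparisons in which it was called and for the interaction. Where no E2 was given, TGFA was 4.88-fold lower with TNFα, and the difference between the effects of TNFα with and without E2 was 2.33 (SE 0.219, edgeR adjusted p 7.57e-07), where genes of like GC content had a median of 0.09.

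HBEGF (heparin-binding EGF-like growth factor, chromosome 5, 140332843 to 140346603, minus strand) was highest in TNFα alone. It was at 40.2, 36.7 and 40.6 CPM in vehicle and 153, 147 and 160 CPM in TNFα. It was at 42.97, 56.5 and 54.0 CPM in E2 and 64.8, 54.7 and 65.7 CPM in E2+TNFα. The TNFα libraries stood above all 9 others, and E2 and E2+TNFα overlapped. HBEGF rose by 1.97 in TNFα relative to vehicle (SE 0.128, edgeR adjusted p 1.06e-08), where genes of like GC content had a median of 0.28. With an unwanted factor from housekeeping genes in the fit, this rise was 1.35, under the size a call required.

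With E2 given first, the difference that TNFα made to HBEGF was 0.28 (95% interval 0.01 to 0.55, edgeR adjusted p 0.246). HBEGF was 2.48-fold lower in E2+TNFα than in TNFα, at -1.31 (SE 0.126, edgeR adjusted p 1.01e-06), a size under the threshold. In E2 relative to TNFα it fell by 1.59 (SE 0.129, edgeR adjusted p 1.54e-07), and this was a call. The difference between the effects of TNFα with and without E2 was -1.69 (SE 0.178, edgeR adjusted p 1.8e-06), where genes of like GC content had a median of -0.28. It kept its sign but was under the size of a call with GC and length trends removed (-1.24) and with library size only (-1.37). With the unwanted factor it was -0.85 and did not pass the test either (edgeR adjusted p 0.192).

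AREG (amphiregulin, chromosome 4, 74445098 to 74455009, plus strand) separated vehicle from everything else. Vehicle libraries had 49.7, 49.2 and 53.1 CPM, whereas the 9 treated libraries ran from 14.7 to 23.4 CPM and the 3 treated groups overlapped. Relative to vehicle the difference was -1.44 with E2, -1.39 with TNFα alone and -1.46 with both, each with an edgeR adjusted p of at most 2.8e-06 and each under the size of a call, where genes of like GC content had medians of -0.39, -0.34 and -0.36. Among the treated groups AREG differed by -0.07 to -0.02, with 95% intervals that lay between -0.43 and 0.35. AREG passed the size of a call relative to vehicle under several alternatives, among them library size only (-1.79, -1.59 and -1.69, in the same order) and leaving out vehicle replicate 1 (-1.56, -1.51 and -1.56). It also passed in at least 1 of these comparisons without vehicle replicate 2 or 3, TNFα replicate 3, E2 replicate 1 or 3 or E2+TNFα replicate 3 (-1.502 to -1.68). Because AREG moved only with the libraries that stood apart, a batch and the vehicle condition cannot be told apart for it.

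EREG (epiregulin, chromosome 4, 74365143 to 74388760, plus strand) lies close to AREG on the same strand but followed another pattern. It was at 84.0, 126 and 112 CPM in vehicle and 101, 123 and 119 CPM in TNFα. In E2 it was at 37.4, 36.4 and 47.4 CPM and in E2+TNFα at 79.1, 89.5 and 57.1 CPM. E2 lay below all other groups, E2+TNFα lay between E2 and TNFα with no overlap, and TNFα overlapped vehicle. EREG differed by -1.495 in E2 relative to TNFα, just under the size of a call (SE 0.186, edgeR adjusted p 1.4e-05), and it was past that size with at least 10 counts in every library (-1.503), with DESeq2 size factors (-1.51) or without E2 replicate 3 (-1.65), any 1 vehicle library, TNFα replicate 1 or E2+TNFα replicate 1 (-1.504 to -1.58). In E2+TNFα relative to TNFα it differed by -0.60 (SE 0.179, edgeR adjusted p 0.0164).

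EREG was the one member with an edgeR adjusted p of at most 0.1 between E2+TNFα and E2, at 0.89 (SE 0.185, edgeR adjusted p 0.0236), which is 1.86-fold higher with TNFα and under the size of a call. Apart from fits that left out a library, this difference ran from 0.45 to 1.03 under the alternatives. The highest adjusted p over all alternatives (edgeR or DESeq2) was 0.151, so it did not pass 0.1 under every processing. EREG also has the lowest exon GC content of the 9 genes, 36.1%, and the 566 genes of like GC content had a median of 0.38 in that comparison, 0.46 in E2+TNFα relative to TNFα and 0.06 in E2 relative to TNFα. Relative to vehicle those genes had medians of -2.30 in E2 and TNFα and -1.85 in E2+TNFα, against which EREG itself was at -1.41, 0.09 and -0.51. With GC and length trends removed, these 3 values became 0.98, 2.41 and 1.43, and without vehicle replicate 1 or E2 replicate 3 the first was -1.67 or -1.58, so EREG's direction relative to vehicle depends on the processing.

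NRG1 (neuregulin 1, chromosome 8, 31639304 to 32767957, plus strand) was higher in both groups with E2. It was at 46.9, 52.5 and 55.1 CPM in vehicle, 42.0, 42.8 and 28.8 CPM in TNFα, 113, 98.1 and 115 CPM in E2 and 108, 115 and 126 CPM in E2+TNFα. Libraries with and without E2 did not overlap, and TNFα lay below vehicle. NRG1 rose by 1.61 in E2+TNFα relative to TNFα (SE 0.148, edgeR adjusted p 6.51e-07) and by 1.52 in E2 relative to TNFα (SE 0.149, edgeR adjusted p 1.23e-06), which are 3.06-fold and 2.86-fold. Both values sat near the threshold: the first was 1.45 without TNFα replicate 3, the lowest NRG1 library, and 1.48 with GC and length trends removed. The second was 1.35 without TNFα replicate 3, 1.46 without E2 replicate 1 or E2 replicate 3, 1.48 without vehicle replicate 2, 1.49 without E2+TNFα replicate 1, 1.48 with only these 2 groups in the fit and 1.36 with library size only. Relative to vehicle NRG1 differed by 1.07 in E2 and 1.17 in E2+TNFα, where genes of like GC content had medians of -0.08 and -0.12, and with GC and length trends removed both were past the size of a call (1.79 and 1.64). Apart from fits that left out a library, the lowest of these values were 0.72 and 0.94. With an unwanted factor from housekeeping genes in the fit, NRG1 in E2 was at 1.38 and did not pass the test (edgeR adjusted p 0.103).

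EPGN, a further EGFR ligand with an entry, was below the filter and was not tested. It was at 0.895, 0.705 and 0.766 CPM in vehicle and at no more than 0.186 CPM in each of the other 9 libraries, and it was therefore higher in vehicle, as AREG was. ERBB4, EGF, BTC, NRG2, NRG3 and NRG4 had no entry in the count table and so could not be analysed here.

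ERRFI1 (MIG6, chromosome 1, 8011719 to 8026333, minus strand), which binds the kinase domain of activated EGFR and inhibits it, followed HBEGF. It was at 212, 257 and 247 CPM in vehicle and 719, 769 and 903 CPM in TNFα. It was at 367, 344 and 437 CPM in E2 and at 379.5, 376 and 324 CPM in E2+TNFα. TNFα lay above all other groups, E2 and E2+TNFα overlapped, and vehicle lay below both. ERRFI1 rose by 1.74 in TNFα relative to vehicle (SE 0.133, edgeR adjusted p 4.34e-08), although genes of like GC content (43.4%) had a median of -0.997. In E2+TNFα it was 2.22-fold lower than in TNFα (-1.15, SE 0.131, edgeR adjusted p 6.41e-06), a size under the threshold. In E2 relative to TNFα it differed by -1.06 (SE 0.131, edgeR adjusted p 1.3e-05), also under the threshold.

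With E2 given first, TNFα made a difference of -0.09 to ERRFI1 (95% interval -0.37 to 0.19). The difference between the effects of TNFα with and without E2 was -1.83 (SE 0.185, edgeR adjusted p 1.32e-06), where genes of like GC content had a median of 1.10. Relative to vehicle ERRFI1 differed by 0.68 in E2 and 0.59 in E2+TNFα, where genes of like GC content had medians of -1.04 and -0.93. With GC and length trends removed the ERRFI1 values became 1.80 and 1.55, both past the size of a call. Apart from fits that left out a library, the lowest ERRFI1 values relative to vehicle were 0.33 in E2 and 0.36 in E2+TNFα.

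**Figure D2:**
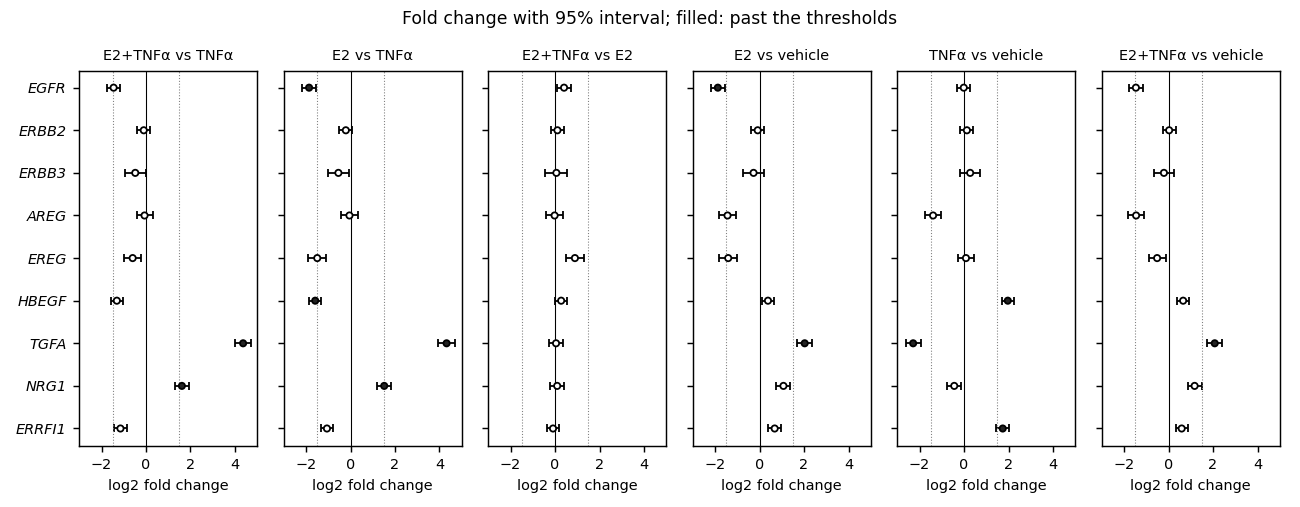
Log2 fold change of each gene in 6 comparisons, from edgeR, with its 95% interval. Filled points passed all thresholds, and dotted lines mark a log2 fold change of 1.5 in either direction. TGFA at 4.37 and 4.32 stands apart in the comparisons of E2+TNFα and E2 with TNFα, and no point is filled for E2+TNFα relative to E2.

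A gene was called where the absolute log2 fold change was at least 1.5, p was under 0.05 and the adjusted p (Benjamini-Hochberg over all genes tested) was at most 0.1. Of the 9 members, 2 were called higher in E2+TNFα relative to TNFα (TGFA and NRG1) and 0 lower, where 3.55% of all genes were called higher and 2.01% lower. In E2 relative to TNFα, 2 were called higher (TGFA and NRG1) and 2 lower (EGFR and HBEGF), with 3.49% and 2.48% of all genes. For E2+TNFα relative to E2 no member was called in either direction, where 0.389% of genes were called higher and 0.0177% lower. At an adjusted p of at most 0.1 without regard to size, 7, 7 and 1 members passed in these comparisons. The share of all genes passing by adjusted p alone was not computed. These 3 counts therefore cannot be read against the percentages above, which are for calls. The medians of the 9 log2 fold changes were -0.48, -0.54 and 0.10, beside 0.04, 0.01 and 0.01 over all genes.

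Relative to vehicle, the called members were TGFA (higher) and EGFR (lower) in E2, where 9.87% of genes were called higher and 20.6% lower. In TNFα they were HBEGF and ERRFI1 (higher) and TGFA (lower), with 6.64% and 20% of all genes. In E2+TNFα only TGFA was called, with 7.52% of genes higher and 17.6% lower. For the difference between the effects of TNFα with and without E2, TGFA was called positive and HBEGF and ERRFI1 negative, where 22.5% of genes were called positive and 9.29% negative. AREG was at 1.37 in that contrast (edgeR adjusted p 0.000143), under the size of a call, and was past it with library size only (1.69) and without vehicle replicate 1 or 2, TNFα replicate 3 or E2 replicate 3 (1.51 to 1.59). EREG was at 0.81, which turned to -1.97 with GC and length trends removed. Calls were thus common among all genes wherever vehicle entered, and the members' counts of 1 to 3 of 9 are to be read against that background. The medians of the 9 members were -0.08, 0.09 and 0.03 relative to vehicle, beside -0.02, 0.01 and -0.03 over all genes.

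On a scale that allows genes to be compared, RPKM, the 5 ligands summed to 105 to 124 in vehicle, 111 to 122 in TNFα, 166 to 205 in E2 and 192 to 215 in E2+TNFα. Every E2-treated library thus held more ligand transcript than any library without E2, and vehicle and TNFα overlapped. TGFA made up 25.4 to 30.2% of the ligand sum in vehicle, 4.87 to 6.19% in TNFα, 66.8 to 74.6% in E2 and 65.0 to 68.3% in E2+TNFα. HBEGF made up 55.7 to 58.4% in TNFα and no more than 16.2% in any library of another group. AREG had the largest share in vehicle, 31.2 to 37.0%. The leading ligand by RPKM was therefore AREG in vehicle, HBEGF in TNFα and TGFA in both groups with E2.

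The summed RPKM of the 3 receptors was lower with E2. It was 55.6 to 62.1 in vehicle and 55.7 to 63.0 in TNFα, and 25.6 to 30.4 in E2 and 31.7 to 36.4 in E2+TNFα. EGFR made up 61.6 to 69.3% of that sum in the 6 libraries without E2 and 33.6 to 46.7% in the 6 with E2, where ERBB2 was the larger share in each library. This exchange came from EGFR, since ERBB2 RPKM stayed between 15.6 and 22.5 across all 12 libraries. ERBB3 was 2.54 to 5.70% of the receptor sum.

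**Figure D3:**
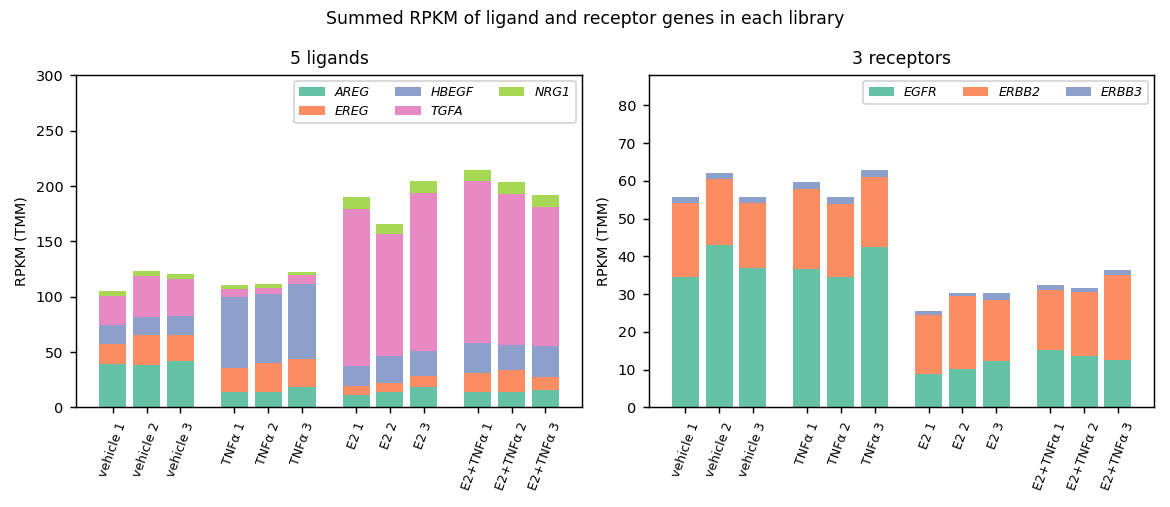
Summed RPKM of the 5 ligands (left) and the 3 receptors (right) in each of the 12 libraries, with each gene's part as a coloured block. Ligand sums are 166 to 215 with E2 and 105 to 124 without, and TGFA fills 65.0 to 74.6% of the sum with E2. Receptor sums are 25.6 to 36.4 with E2 and 55.6 to 63.0 without.

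Over the 9 treated libraries, log2 CPM of TGFA and NRG1 correlated at r = 0.965, and HBEGF, EGFR and ERRFI1 correlated with each other at 0.931 to 0.985. TGFA correlated with EGFR at -0.949, with HBEGF at -0.968 and with ERRFI1 at -0.953. These 9 points fall into 3 groups, so the values mainly restate the differences between groups and are a description. With vehicle included (12 libraries), HBEGF and ERRFI1 stayed at 0.942 while HBEGF and EGFR were at 0.331. ERBB2 correlated with no other member beyond 0.527 in size among the treated libraries.

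The genes whose log2 CPM was most like that of a member over the 12 libraries were, for TGFA, DAB2 (r = 0.99), an endocytic adaptor, and ADAM12 (0.989), a metalloprotease of the same family as the ligand sheddases. For EGFR they were PDLIM5 (0.994) and DLC1 (0.984), and for HBEGF they were PLAU (0.991), the urokinase protease, and VDR (0.988), the vitamin D receptor. NRG1 was nearest to HSPA2 (0.988) and ABCC5 (0.986), and ERRFI1 to SNHG3 (0.978) and BTG1 (0.975). EREG was nearest to ETS1 (0.971) and WASF3 (0.961), ERBB2 to LLGL1 (0.985) and HGS (0.982), and ERBB3 to ZNF543 (0.96) and AMMECR1L (0.948). AREG was nearest to KIAA0753 (0.984) and HMBOX1 (0.979), and without the vehicle libraries these fell to 0.876 and 0.724. For the other members the 2 values were at least 0.962 without vehicle.

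The other genes of the pathway were counted by role. Of all genes, 3.55% were called higher and 2.01% lower in E2+TNFα relative to TNFα. In E2 relative to TNFα these shares were 3.49% and 2.48%. Of 9 genes that shed the ligands or regulate shedding, ADAM12 was called higher in E2+TNFα relative to TNFα (4.51, SE 0.296, edgeR adjusted p 1.57e-08) and in E2 relative to TNFα (4.57), and the 8 others were not called in either. ADAM12 was at 0.329, 0.294 and 0.728 CPM in TNFα and 8.61 to 11.2 CPM with E2, a low level next to that of the ligands. ADAM17, the main protease that releases TGFA and HBEGF, was at 36.6 to 45.4 CPM in TNFα, 19.3 to 27.0 in E2 and 18.9 to 29.4 in E2+TNFα and was not called. The median log2 fold change of these 9 genes was 0.64 in E2+TNFα relative to TNFα.

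Of 19 tested genes of receptor turnover, RNF41, a ubiquitin ligase that targets ERBB3, was called lower in E2+TNFα relative to TNFα (-1.503, SE 0.128, edgeR adjusted p 2.92e-07). In that comparison 2.01% of all genes were called lower. RNF41 was at 36.9 to 41.3 CPM in vehicle, 136 to 185 in TNFα, 86.5 to 89.5 in E2 and 53.8 to 64.5 in E2+TNFα. All treated groups thus lay above vehicle. In TNFα relative to vehicle RNF41 was called higher (2.08), beside 6.64% of all genes. The value of -1.503 was just past the size of a call, and its change under the alternatives was not looked at. Of 29 adaptors and transducers, among them SHC1, SOS1 and AKT1, none was called in either direction in the 3 comparisons among treated groups. Across the comparisons with vehicle, 7 to 9 of the 29 were called lower and at most 1 higher, in the company of 17.6 to 20.6% of all genes.

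Of 18 genes that ERK signaling is known to induce or that feed back on it, 2 were called higher and 2 lower in E2+TNFα relative to TNFα. Of all genes, 3.55% were called higher and 2.01% lower there. DUSP5, an ERK phosphatase, was lower (-2.18, SE 0.139, edgeR adjusted p 1.16e-08), and so was DUSP6, another one (-1.59, SE 0.147, edgeR adjusted p 7.35e-07). CCND1, cyclin D1, was higher (1.54, SE 0.106, edgeR adjusted p 2.56e-08). The other gene called higher was DUSP4, a phosphatase of the same family as DUSP5 and DUSP6 (1.52, SE 0.104, edgeR adjusted p 2.5e-08). For E2 relative to TNFα, 3 of the 18 were called lower, DUSP5 (-2.20), MYC (-1.83) and DUSP6 (-1.65), beside 2.48% of all genes. Called higher was 1 gene, DUSP4 (1.56), at 172 to 184 CPM in TNFα and 501 to 539 CPM in E2, beside 3.49% of all genes. The median of the 18 was -0.56 in E2+TNFα relative to TNFα and -0.47 in E2 relative to TNFα. In E2+TNFα relative to E2, 0 of these 18, 0 of the 29, 0 of the 19 and 0 of the 9 were called. Of all genes, 0.389% were called higher and 0.0177% lower in that comparison.

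**Figure D4:**
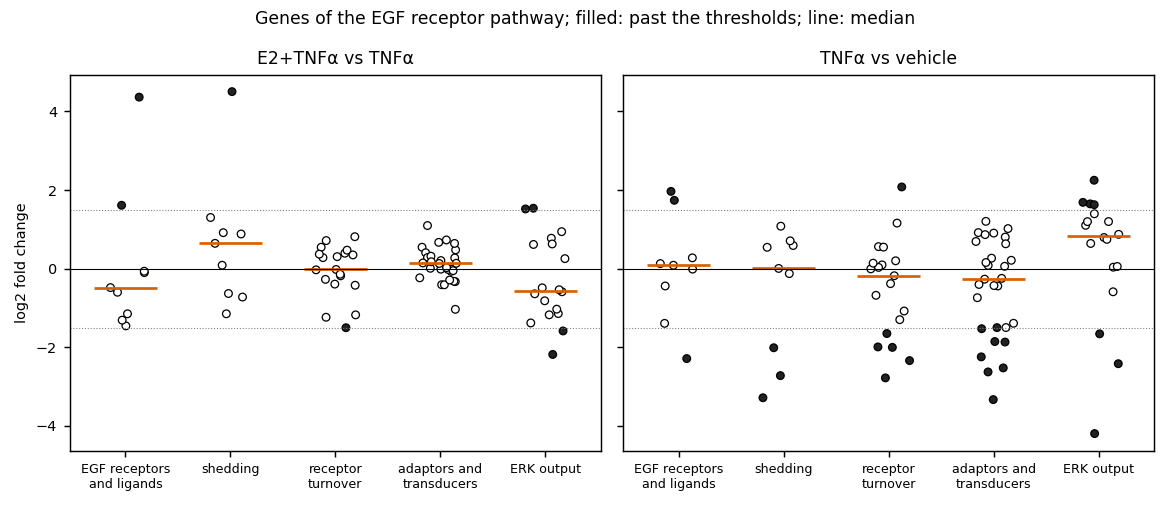
Log2 fold change of the 9 members and of the tested genes of 4 other lists of the pathway, in E2+TNFα relative to TNFα (left) and TNFα relative to vehicle (right). Each point is a gene, filled where it passed the thresholds, and the line is the list's median. On the left the adaptors and transducers have 0 filled points, and on the right 8 of 29 are filled, all of them lower. In TNFα relative to vehicle 20% of all genes were called lower.

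**Figure D5:**
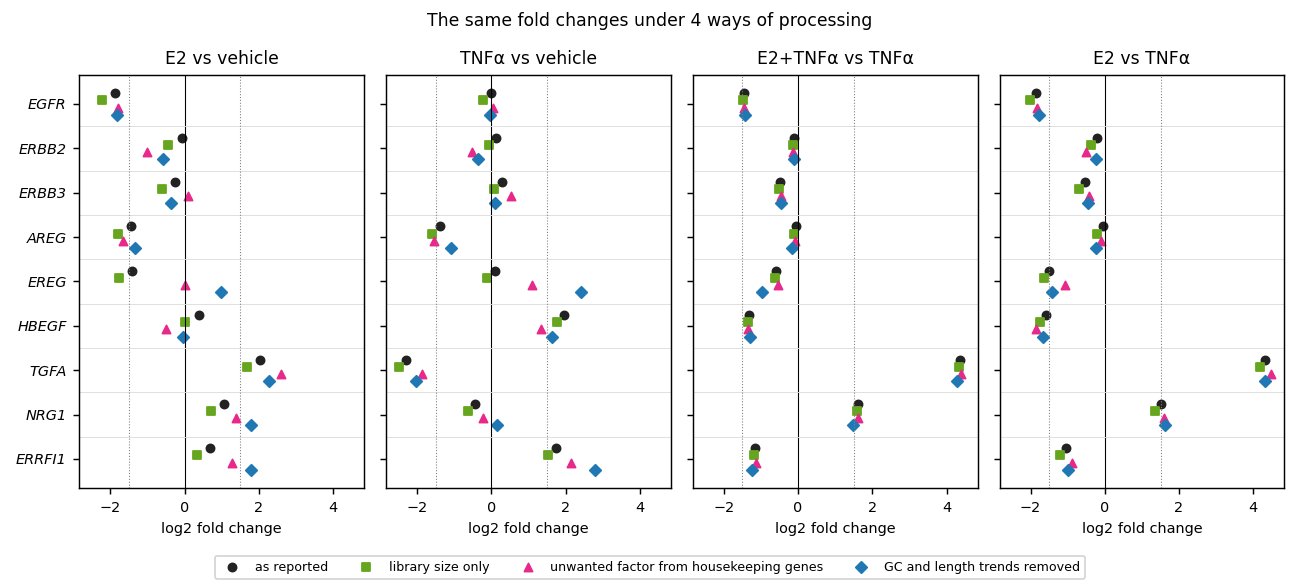
Log2 fold change of each member in 4 comparisons as reported and under 3 other ways of processing. EREG moves from -1.41 to 0.98 in E2 relative to vehicle and from 0.09 to 2.41 in TNFα relative to vehicle when GC and length trends are removed, whereas in E2+TNFα relative to TNFα each of the 9 genes keeps its sign.

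No member had a copy elsewhere in the genome of at least 200 bases at an identity of at least 90%. EGFR shares 186 bases (2.83% of its exon length) with EGFR-AS1 on the opposite strand, ERBB3 shares 31 bases and NRG1 189 bases with unnamed genes on the same strand. The libraries were made with a stranded kit, but the strand setting of the read counting is not given in the sources used here, so reads of these small stretches may belong to either gene.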

How the data were processed

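RNA-seq libraries of 12 cultures of MDA-MB-231-ERβ cells (4 groups of 3) were analysed. Per the submitters' processing notes, reads were mapped with TopHat2 2.1.0 to hg38 and assigned to genes with featureCounts, and the deposited values are whole-number counts, without normalization or batch correction. The unwanted variation step that the study describes is not in them, and its housekeeping genes and batches are not named in the sources used here.

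Of 12567 entries, 46 were repeats of another entry and 70 were second names of the same locus with the same counts, and these were dropped. TMM scaling and the quasi-likelihood test came from edgeR 4.0.16 (R 4.3.3), and all 4 groups shared a single fit. The 95% intervals are from that fit. RPKM used the summed exon length. Filter and thresholds followed the study, and the number of libraries for the filter was set here. Counts of replicates differed by 10.1 to 71 times counting error (chi-square per degree of freedom), so no library was a copy of another. Genes of like GC content are the same one of 20 equal bins. The 9 members, the other pathway lists and the tests were chosen with earlier results of these data known. All members were named, and of the other lists up to 3 called genes per comparison, or genes named as examples. ADAM17 and DUSP4 were named after their values were seen.

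Alternatives were DESeq2 1.42.0 and its size factors, library size only, no filter, at least 10 counts in every library, the likelihood ratio test, only the groups compared, the replicate number as a block, 1 unwanted factor from 20 housekeeping genes computed as in RUVg, a fit in which trends of each library with GC content and length (loess, span 0.3) were taken out, and each library left out in turn. The steps were tested on simulated data. Exons were aligned to hg38 with minimap2 2.31.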

Additional observations from a re-analysis of the deposited data

Results flagged for a closer look

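For 3 members the difference between the effects of TNFα with and without E2 passed the thresholds of a call, size included. By edgeR's adjusted p of at most 0.1 alone, 7 of the 9 members passed in this contrast. The share of all genes passing by adjusted p alone was not computed. HBEGF had a difference of -1.69 on the log2 scale, ERRFI1 of -1.83 and TGFA of 2.33. TNFα relative to vehicle gave 1.97, 1.74 and -2.29 for these genes, and E2+TNFα relative to E2 gave 0.28, -0.09 and 0.05. The vehicle libraries enter each of these differences, and the batch and the vehicle condition cannot be told apart. In the same contrast 22.5% of all genes were called positive and 9.29% negative. With the unwanted factor from housekeeping genes in the fit, the difference for HBEGF was -0.85 and did not pass the test (edgeR adjusted p 0.192).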

How the results depend on the processing

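The number of genes called moved mainly in comparisons with vehicle. With an unwanted factor from housekeeping genes it was 1257 for E2, 1022 for TNFα and 1178 for E2+TNFα relative to vehicle, in place of 3447, 3016 and 2837, and 782 for the interaction in place of 3593. Removal of the GC and length trends gave 1570, 1179, 1228 and 1534. For E2 relative to TNFα the unwanted factor gave 1056 calls in place of 675. For E2+TNFα relative to E2, in place of 46, there were 24 with at least 10 counts in every library, 92 with the unwanted factor, 28 with only the groups compared, and 32 to 84 when each library was left out, with 84 without E2 replicate 3. The share of calls that were higher moved by over 10 percentage points with the trends removed, from 32.4, 24.9 and 30% to 52.2, 46.8 and 53.1% relative to vehicle for E2, TNFα and E2+TNFα and from 70.8 to 53.3% for the interaction. With the unwanted factor it was 54.8, 34.7 and 53.7% for the first 3, 58.3% for the interaction and 42.4% in place of 95.7% for E2+TNFα relative to E2, and with library size only it was 17.4% for E2 relative to vehicle, 47.8% in place of 58.5% for E2 relative to TNFα and 83.9% for the interaction. The cause was not tested.

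Of the 9 members, 4 in place of 2 were called for E2 relative to vehicle with library size only or with GC and length trends removed, and 2 to 4 when each library was left out (4 without vehicle replicate 1 and without E2 replicate 3). For E2+TNFα relative to vehicle, in place of 1, there were 3 under library size alone, under the filter of 10 counts or with the trends removed, 2 with the unwanted factor, and 1 to 3 when each library was left out. For E2+TNFα relative to TNFα there was 1 in place of 2 with the trends removed, and 1 to 3 when each library was left out, with 1 without TNFα replicate 3.

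No pairing of the libraries by replicate number was seen: same-numbered libraries of different groups had deviations that correlated at -0.482 to 0.467 (18 pairs), others at -0.549 to 0.655 (36). These overlapping ranges cannot exclude a pairing, since other differences between libraries could hide it. The replicate block gave 623 calls for E2+TNFα relative to TNFα in place of 628, 676 for E2 relative to TNFα in place of 675, and 36 in place of 46 for E2+TNFα relative to E2. The block together with trend removal gave 1562, 1188 and 1239 calls relative to vehicle for E2, TNFα and E2+TNFα and 1535 for the interaction, with 4 members for E2 and 3 for E2+TNFα relative to vehicle and 1 for E2+TNFα relative to TNFα.

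Most values that changed sign were within 0.13 of 0 as reported. The exceptions were ERBB3, EREG and HBEGF in E2 (-0.27, -1.41 and 0.38) and in E2+TNFα (-0.21, -0.51 and 0.66) relative to vehicle, NRG1 in TNFα relative to vehicle (-0.44), and ERBB3, EREG and NRG1 in the interaction (-0.21, 0.81 and 0.54). With the unwanted factor, E2 relative to vehicle became 0.084 for ERBB3, 0.014 for EREG and -0.51 for HBEGF. TNFα relative to vehicle became 0.045 for EGFR and -0.52 for ERBB2. E2+TNFα relative to vehicle became -0.67 for ERBB2, 0.057 for ERBB3, 0.53 for EREG and -0.0046 for HBEGF. E2+TNFα relative to E2 became -0.028 for ERBB3, 0.041 for AREG and -0.097 for TGFA. The interaction became 0.87 for ERBB2 and -0.57 for EREG.

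With trends removed (and with the block as well), E2 relative to vehicle became 0.98 (0.98) for EREG and -0.046 (-0.046) for HBEGF. TNFα relative to vehicle became -0.35 (-0.35) for ERBB2 and 0.16 (0.15) for NRG1. E2+TNFα relative to vehicle became -0.47 (-0.47) for ERBB2 and 1.43 (1.42) for EREG. E2+TNFα relative to E2 became 0.079 (0.081) for AREG, -0.019 (-0.017) for TGFA and -0.15 (-0.14) for NRG1. The interaction became 0.47 (0.47) for ERBB2, -1.97 (-1.97) for EREG and -0.31 (-0.29) for NRG1.

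With library size only, which moved the median of all genes to -0.378, -0.193 and -0.263 relative to vehicle for E2, TNFα and E2+TNFα, to 0.131 for E2+TNFα relative to E2, to -0.146 for E2 relative to TNFα and to 0.312 for the interaction, ERBB2 became -0.071 and EREG -0.11 in TNFα relative to vehicle. ERBB2 became -0.22 in E2+TNFα relative to vehicle, AREG 0.0997 and ERRFI1 0.036 in E2+TNFα relative to E2, and ERBB2 0.30 and ERBB3 0.091 in the interaction. EGFR in TNFα relative to vehicle became 0.0156 with DESeq2 size factors and with the DESeq2 test, 0.0157 with no filter and 0.0045 with only the groups compared. With at least 10 counts in every library, ERBB2 became -0.025 in E2+TNFα relative to vehicle and 0.049 in the interaction, and with only the groups compared AREG became 0.0202 in E2+TNFα relative to E2.

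Leaving out each library gave sign changes in these ranges: AREG -0.26 to 0.10 in E2 relative to TNFα, -0.17 to 0.17 in E2+TNFα relative to E2 and -0.16 to 0.086 in E2+TNFα relative to TNFα. EGFR ran from -0.18 to 0.078 and EREG from -0.16 to 0.18 in TNFα relative to vehicle. In E2+TNFα relative to E2, ERBB2 ran from -0.061 to 0.21, ERBB3 from -0.14 to 0.38, ERRFI1 from -0.17 to 0.011 and TGFA from -0.077 to 0.11. ERBB2 ran from -0.14 to 0.089 in E2+TNFα relative to vehicle and from -0.19 to 0.12 in the interaction, where ERBB3 ran from -0.51 to 0.13. Over all alternatives, 1284 values of single members kept direction and side of the threshold, 82 changed sign, 59 passed the threshold in the same direction and 15 no longer passed. Depth limits ERBB3 most, with a lowest count of 32.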
